A study of Homo sapiens with 6 samples.

Results

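The mRNAs examined here encode the chromatin remodelling complexes: the ATPases that slide, evict or exchange nucleosomes, and the subunits that work with them. Members were chosen by gene symbol, as every listed gene whose symbol is CHD or ARID followed by a digit, begins with SMARC, INO80, BAZ1 or BAZ2, is ACTR5, ACTR6 or ACTR8, or is one of ATRX, BPTF, EP400, SRCAP, HELLS, PBRM1, RSF1, MTA1, MTA2, MTA3, MBD2 and MBD3. This gave 62 of the 23013 genes in the table, of which 57 are protein-coding remodelling or ARID genes and 5 are SMARCE1 pseudogenes or the antisense transcript SMARCA5-AS1. The mean normalised count over the 6 libraries was at least 10 for 59 members, which were tested together with all 16513 genes above that level. ARID3C, SMARCE1P1 and SMARCA5-AS1 fell under it and were not tested.

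The study asked which RNAs are carried along by ORC1, the largest subunit of the origin recognition complex, when that protein is pulled out of nuclei with an antibody (native RNA immunoprecipitation and sequencing, RIP-seq). Input libraries (3) were made from nuclear RNA with no antibody, and ORC1 IP libraries (3) from the material that an anti-ORC1 antibody from the Stillman laboratory retained. Both groups came from untreated, asynchronous HCT116 cells, a human colorectal cancer line, and the labels number the RIP replicates 1 to 3 in each group. No library made with a control antibody was analysed here, so these libraries alone cannot tell apart RNA bound by ORC1 and RNA carried over by beads or antibody. According to the paper, RNA was below detection when a nonspecific antibody (IgG) was used instead. It also reports a second pulldown, of Flag-tagged ORC1, most of whose RNAs were shared with the endogenous protein. Neither of these controls was examined here. A single cell line was used. That the replicates were separate cultures is not stated in the labels, and the p-values measure the spread between these samples.

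Remodellers fall into 4 ATPase families. SWI/SNF complexes (BAF and PBAF) slide and evict nucleosomes at promoters and enhancers, ISWI complexes space them in regular arrays, CHD proteins do both and include the ATPases of the deacetylase complex NuRD, and INO80 and SWR1 type complexes exchange histone variants and act in DNA repair and replication. Most of their large subunits join the ATPase to modules that read histones, such as bromodomains, PHD fingers and chromodomains, or that bind DNA, such as the ARID domain.

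The study searched the RNAs enriched in these libraries for sequence motifs and went on to work with GAA repeats, so the repeat is not independent of the values given here. Tandem GAA runs (at least 3 exact copies of GAA in a row, on the transcript strand) were therefore looked up in the Ensembl canonical transcript of each gene (GENCODE v44, GRCh38). A run was present in 29 of the 59 tested members (49.2%) and in 13.0% of the 16062 tested genes with such a transcript. The 8 windows printed here show the run in capitals with 6 flanking bases on each side. The 6 windows from BAZ2B to CHD9 come from members that passed the test described further on, and those of ARID1A and CHD4 show 5 copies in members that did not pass. The called ARID4B also holds a run of 5 copies, which spans an exon junction, and its run of 4 is printed here.
BAZ2B: gaagatGAAGAAGAAGAAgatcaa
BPTF: aaacagGAAGAAGAAGAAacgatg
ARID4B: gaggagGAAGAAGAAGAAgaggat
ATRX: cacaaaGAAGAAGAAgagttg
RSF1: gttcctGAAGAAGAAaccact
CHD9: tcttctGAAGAAGAAtctatg
ARID1A: ggtgggGAAGAAGAAGAAGAActtcta
CHD4: tggcaaGAAGAAGAAGAAGAAgcttgg
All 8 windows lie within a coding exon. They sit at chr2:159439078-159439101 (BAZ2B, minus strand), chr17:67903850-67903873 (BPTF, plus), chr1:235213948-235213971 (ARID4B, minus) and chrX:77523303-77523323 (ATRX, minus). The others sit at chr11:77701078-77701098 (RSF1, minus), chr16:53304178-53304198 (CHD9, plus), chr1:26779179-26779205 (ARID1A, plus) and chr12:6602036-6602062 (CHD4, minus). In 7 of them the run is in frame with the codon GAA and encodes a row of glutamates, while in CHD4 the reading frame is offset by 2 bases and reads AAG, a row of lysines. Leaving CHD7 aside, the canonical transcripts of 29 genes, the untested SMARCA5-AS1 included, held 57 runs of at most 5 copies. Of these, 53 lay in coding sequence, 33 in the glutamate frame and 20 in the lysine frame. A run is a match of letters and was not shown to be a site that ORC1 binds. From iCLIP peak positions and gel-shift assays, the study concluded that binding does not go through the repeat.

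Libraries held 13703033 to 17248924 recovered reads in the inputs and 25134156 to 36008733 in the ORC1 IPs. The epithelial markers EPCAM, CDH1, KRT8, KRT18 and KRT19 were present in every library, with lowest values of 1656, 560, 6930, 2794 and 4632 normalised counts. The fibroblast marker COL1A1 was between 161 and 787 normalised counts, and PTPRC, CD3E, COL3A1, PECAM1 and CDH5 were not listed. Each library pooled many cells, so fewer cells with an RNA and less of it per cell cannot be told apart. ORC1 IP 2 stood apart from the other ORC1 IPs: mitochondrial transcripts took 5.995% of its normalised counts against 0.617% and 0.257% in ORC1 IPs 1 and 3 and 1.49% to 3.28% in the inputs. The main counts and medians are therefore also given without it.

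The remodelling mRNAs as a whole were more abundant in the ORC1 IPs. They took 0.679%, 0.590% and 0.535% of all normalised counts in inputs 1 to 3, against 1.61%, 0.833% and 1.48% across ORC1 IPs 1 to 3 (0.601% ± 0.0723 against 1.31% ± 0.416, SD, n = 3 each), and these ranges did not overlap. The median log2 fold change of ORC1 IP over input was 1.03 over the 59 members and 0.01 over all tested genes, and 51 members (86.4%) had a positive value against 50.7% of all tested genes. By the test used throughout (limma on log2(normalised count + 1), Benjamini-Hochberg adjusted p under 0.05 over all tested genes), 8 members were higher in the ORC1 IPs and 0 were lower. That is 13.6% of the members, where 2.28% of all tested genes were called higher and 1.42% lower. The call of these 8 is not firm, since leaving out input 3 or ORC1 IP 3 left 0 members called and leaving out input 2 left 1. In those fits the whole table also lost most of its calls, with 0.0363%, 0.145% and 0.291% of all tested genes called higher. At an unadjusted p under 0.05, 28 members (47.5%) passed, all of them higher, against 12.2% of all tested genes in that direction.

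The study used a looser cut-off on values from the count model DESeq2 (above 1 on the log2 scale, at an unadjusted p under 0.05). Applied here to the limma values, this cut-off was passed by 26 members (44.1%) against 10.9% of all tested genes. Its mirror was passed by 0 members against 7.25% of all tested genes. In 24 members (40.7%) all 3 ORC1 IPs lay above all 3 inputs, against 12.7% of all tested genes. The reverse order was seen in 0 members and in 13.5% of all tested genes. Members thus passed in the higher direction more often than the table as a whole under each of these rules, and in the lower direction under none.

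**Figure D1:**
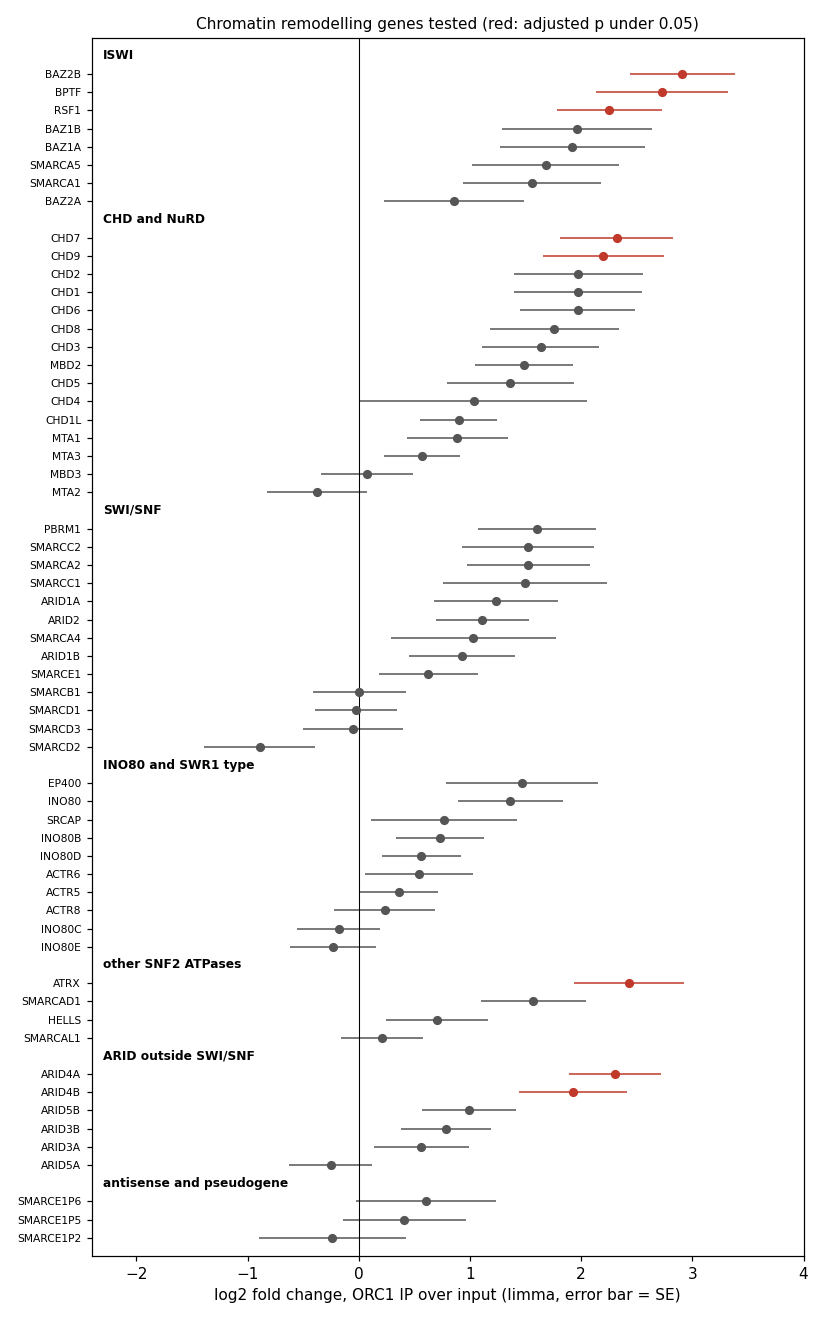
Log2 fold change of ORC1 IP over input (horizontal axis, limma on log2(normalised count + 1), error bars 1 SE, 3 libraries in each group) for the 59 tested members, arranged by complex. The 8 members with an adjusted p under 0.05 are marked, and values run from -0.89 for SMARCD2 to 2.91 for BAZ2B.

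ISWI mRNAs had the highest median of the groups, 1.94 over 8 members, and every member had a positive value. BAZ2B, BPTF and RSF1 rose and the other 5 did not pass. All 3 that rose are large non-catalytic subunits that join the ISWI ATPases SMARCA1 and SMARCA5 in separate complexes. BAZ2B, a bromodomain protein (chr2:159318979-159616569, minus strand), held 633, 254 and 159 normalised counts in inputs 1 to 3, against 2524, 1697 and 2556 across ORC1 IPs 1 to 3. Its ORC1 IPs all lay far above its inputs, although the inputs themselves were spread widely (349 ± 251 against 2259 ± 487, SD). The log2 fold change was 2.91 ± 0.47 (SE; limma, adjusted p = 0.0106), and the gene stood at place 51 of all tested genes from the top. BPTF, the largest subunit of NURF and a reader of methylated histone H3 (chr17:67825503-67984378, plus strand), held 3583, 2364 and 1397 normalised counts in the inputs. In the ORC1 IPs it held 23415, 7148 and 20617, each above the highest input, giving 2.73 ± 0.59 (SE; limma, adjusted p = 0.0302). RSF1, the histone-binding subunit of the remodelling and spacing factor (chr11:77660009-77820869, minus strand), went from 1060, 630 and 415 normalised counts to 5442, 1858 and 2986. Its groups did not overlap and the log2 fold change was 2.25 ± 0.47 (SE; limma, adjusted p = 0.0269).

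The ISWI members that did not pass were in most cases high in ORC1 IPs 1 and 3 and near the inputs in ORC1 IP 2. SMARCA5, the main ISWI ATPase of proliferating cells, held 5096, 2635 and 2215 normalised counts in the inputs and 17368, 3375 and 16698 in the ORC1 IPs, which gave 1.68 ± 0.66 (SE; limma, adjusted p = 0.160). Its ORC1 IP 2 value lay inside the range of the inputs. SMARCA1, the other ISWI ATPase, had 1.56 ± 0.62 (SE; limma, adjusted p = 0.166). BAZ1A and BAZ1B, the partners of SMARCA5 in the ACF and WICH complexes, had log2 fold changes of 1.92 and 1.97 with adjusted p of 0.112 and 0.114 in limma. BAZ2A, which joins SMARCA5 in the nucleolar remodelling complex, had the lowest value of the group, 0.86 ± 0.63 (SE; limma, adjusted p = 0.466), with 5143, 5503 and 4319 normalised counts in the inputs and 18349, 3333 and 11842 in the ORC1 IPs. Its ORC1 IP 2 was below every input while the other ORC1 IPs were above every input.

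Among the CHD and NuRD mRNAs, 14 of 15 had a positive value, the median log2 fold change was 1.49, and CHD7 and CHD9 rose. Both belong to the CHD6 to CHD9 subfamily, and CHD7 is the gene mutated in CHARGE syndrome. CHD7 held 812, 922 and 614 normalised counts in the inputs and 6302, 1595 and 5696 in the ORC1 IPs. The groups did not overlap, and the log2 fold change was 2.32 ± 0.51 (SE; limma, adjusted p = 0.0307). CHD9 (chr16:53054991-53329150, plus strand) went from 1231, 1359 and 608 normalised counts to 6694, 1953 and 7570, again without overlap, giving 2.20 ± 0.54 (SE; limma, adjusted p = 0.0467).

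The remaining CHD ATPases did not pass, although several were close. CHD6, of the same subfamily, held 900, 1064 and 948 normalised counts in the inputs and 5429, 1502 and 6704 in the ORC1 IPs (1.97 ± 0.52, SE; limma, adjusted p = 0.0553), and its groups did not overlap. CHD1, which binds methylated histone H3 and follows elongating polymerase, and its relative CHD2 had values of 1.97 and 1.98 with limma adjusted p of 0.0728 and 0.0759. CHD8, a regulator of Wnt target genes, had 1.76 (limma, adjusted p = 0.104). The NuRD ATPases CHD3, CHD5 and CHD4 had 1.63, 1.36 and 1.03, with limma adjusted p of 0.0989, 0.185 and 0.603. CHD4 was the most variable of the named ATPases, with 13630, 23939 and 16225 normalised counts in the inputs and 82209, 7125 and 77405 in the ORC1 IPs. ORC1 IP 2 lay below all inputs for this gene and the SE was 1.02. CHD1L, a remodeller recruited by poly(ADP-ribose), had 0.90 (limma, adjusted p = 0.155) with groups that did not overlap.

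The NuRD subunits without ATPase activity ranged from MBD2 at the group's median to a negative value for MTA2. MBD2, which binds methylated DNA, held 1013, 378 and 480 normalised counts in the inputs and 2471, 1370 and 1197 in the ORC1 IPs (1.49 ± 0.44, SE; limma, adjusted p = 0.0777), with no overlap. MBD3, its counterpart that does not need methylated DNA, had a log2 fold change of 0.08. MTA2, which holds histone deacetylases in the complex, was the lowest of the group at -0.38 ± 0.45 (SE; limma, adjusted p = 0.675). The values of MTA2 were 3932, 6068 and 5350 normalised counts in the inputs and 4317, 2895 and 4655 in the ORC1 IPs, which overlapped.

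**Figure D2:**
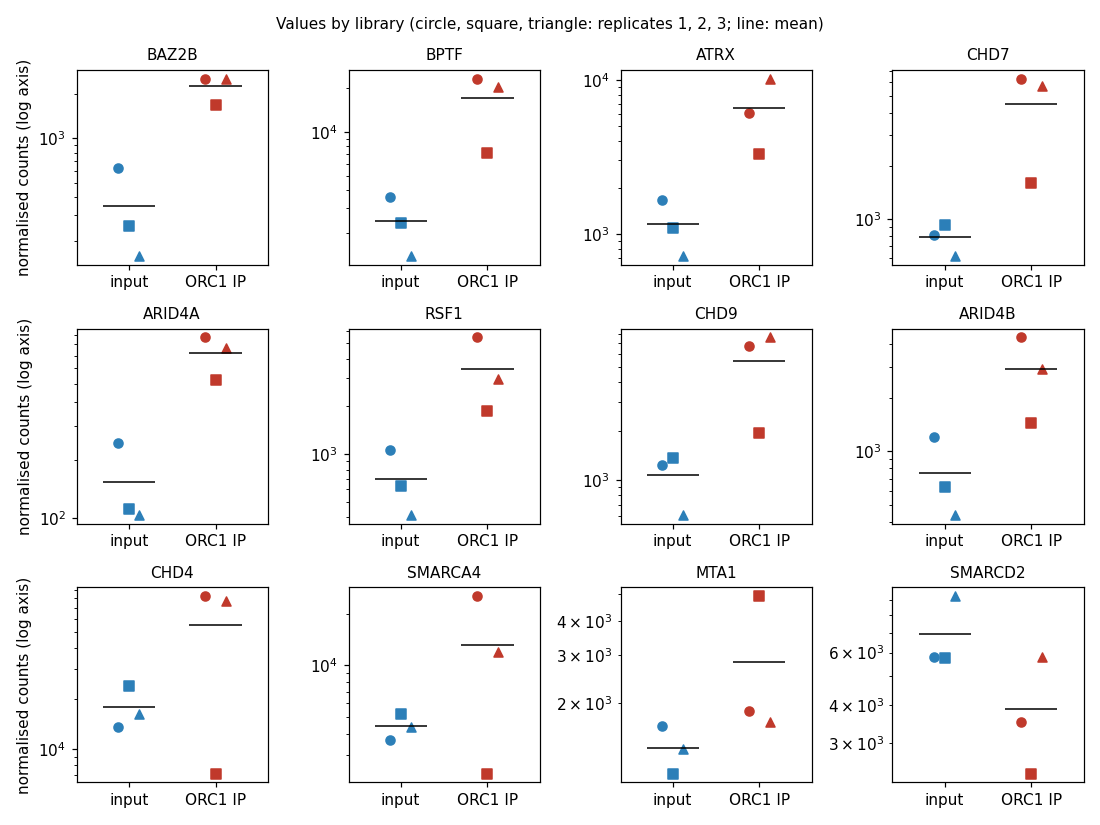
Normalised counts on a log axis in each of the 6 libraries (points), with inputs and ORC1 IPs set apart by colour. The 8 members that passed the test are shown. CHD4 and SMARCA4, both ATPases, and the non-catalytic subunits MTA1 and SMARCD2 did not pass and are also shown. In all 8 called members the 3 ORC1 IP points lie above the 3 input points, and ORC1 IP 2 is the lowest ORC1 IP point in each.

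SWI/SNF mRNAs had a median log2 fold change of 1.03 over 13 members, and 10 values were positive. The median was 0.52 with the correction for GC content and length described further on and 0.59 without ORC1 IP 1. None rose or fell in the test, and 5 passed the looser threshold of the study. PBRM1, the bromodomain subunit of PBAF, had the highest value, 1.60 ± 0.53 (SE; limma, adjusted p = 0.106), from 2309, 1989 and 1260 normalised counts in the inputs to 7249, 2409 and 9280 in the ORC1 IPs. These values did not overlap. The alternative ATPases SMARCA2 and SMARCA4 had 1.52 and 1.03, with limma adjusted p of 0.133 and 0.452. SMARCA4 held 3663, 5234 and 4349 normalised counts in the inputs and 25234, 2342 and 12017 in the ORC1 IPs, so that ORC1 IP 2 was below all inputs and the other ORC1 IPs above. SMARCD2, a shared core subunit, was the lowest of all tested members at -0.89 ± 0.50 (SE; limma, adjusted p = 0.326). It held 5785, 5748 and 9251 normalised counts in the inputs and 3507, 2368 and 5808 in the ORC1 IPs, with ORC1 IP 3 inside the range of the inputs. The other core subunits SMARCB1, SMARCD1 and SMARCD3 had values of 0.01, -0.02 and -0.05.

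INO80 and SWR1 type mRNAs had a lower median, 0.55 over 10 members, with 8 positive values, and 0 of them passed the test. Without ORC1 IP 1 the median was 0.32. EP400, the ATPase of the TIP60 complex, had the highest value, 1.47 ± 0.68 (SE; limma, adjusted p = 0.236), with 2933, 4167 and 2625 normalised counts in the inputs and 15746, 2516 and 17143 in the ORC1 IPs. INO80 itself, the ATPase that gives the complex its name, had 1.36 ± 0.47 (SE; limma, adjusted p = 0.118), and SRCAP, which deposits H2A.Z, had 0.76 ± 0.66 (SE; limma, adjusted p = 0.538). INO80 was the member of this group that passed the threshold of the study. Its ORC1 IPs (5972, 1831 and 4958 normalised counts) all lay above its inputs (1610, 1538 and 1286). INO80E, a small accessory subunit, was the lowest at -0.23 (limma, adjusted p = 0.776).

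ATRX, which deposits histone H3.3 in repetitive DNA (chrX:77504880-77786233, minus strand), rose and was the highest of the 4 other SNF2 ATPases. It held 1671, 1098 and 721 normalised counts in the inputs and 6139, 3299 and 10224 in the ORC1 IPs, with no overlap, giving 2.43 ± 0.49 (SE; limma, adjusted p = 0.0239). SMARCAD1, which acts behind replication forks, had 1.57 ± 0.47 (SE; limma, adjusted p = 0.0810) and groups that did not overlap (614 to 1602 normalised counts in the inputs, 1795 to 4791 in the ORC1 IPs). HELLS, a helicase needed for DNA methylation, had 0.70 (limma, adjusted p = 0.405). SMARCAL1, which anneals DNA at stalled forks, was the lowest at 0.21 (limma, adjusted p = 0.793).

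ARID4A and ARID4B, paralogous DNA-binding subunits of the SIN3 deacetylase complex, rose, and the other 4 tested ARID proteins outside SWI/SNF did not pass. ARID4A (chr14:58298504-58373887, plus strand) went from 245, 112 and 104 normalised counts in the inputs to 870, 520 and 768 in the ORC1 IPs. The log2 fold change was 2.30 ± 0.42 (SE; limma, adjusted p = 0.0154) and no values overlapped. ARID4B (chr1:235131634-235328219, minus strand) went from 1203, 629 and 439 to 4381, 1438 and 2895, giving 1.93 ± 0.49 (SE; limma, adjusted p = 0.0494), the called value nearest to the threshold. ARID5A, an RNA-binding regulator of mRNA stability, was the lowest of the group at -0.25 (limma, adjusted p = 0.744). The 3 tested SMARCE1 pseudogenes had low levels and a median of 0.41, between -0.24 for SMARCE1P2 and 0.60 for SMARCE1P6 (limma, adjusted p = 0.875 and 0.627). They share sequence with SMARCE1, so their counts are uncertain.

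Ordered by role, all 21 catalytic ATPases had a positive log2 fold change, with a median of 1.56, and 3 of them (CHD7, CHD9 and ATRX) passed the test. The 35 non-catalytic subunits and ARID proteins had a median of 0.79 with 28 positive values, and 5 passed. The calls were 14.29% of each role, against 2.28% of all tested genes. The threshold of the study was passed by 14 of the ATPases (66.7%) and 12 of the others (34.3%). Of all tested genes 10.9% passed it. The roles also differed in median transcript length (7684 against 5832 bases) and in the share with a tandem GAA run (80.95% against 31.43%). With the correction for GC content and length described further on, the medians were 1.14 and 0.53. The part of these features in the difference was not tested. The split by role was chosen after the values were seen, and it has no test.

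Fewer members were raised in ORC1 IP 2 than in the other ORC1 IPs. Over the 59 members, the median log2 difference from the mean of the inputs was 1.89 in ORC1 IP 1, 0.24 in ORC1 IP 2 and 1.44 in ORC1 IP 3, while the same median over all tested genes was between -0.02 and 0.07. Members above their highest input numbered 50 (84.7%) in ORC1 IP 1, 27 (45.8%) in ORC1 IP 2 and 44 (74.6%) in ORC1 IP 3, against 35.6%, 34.0% and 37.0% of all tested genes. The excess of the members over the table was therefore smallest in ORC1 IP 2. Without that library, 35 members (59.3%) passed the adjusted threshold, against 11.9% of all tested genes, and all 8 tested ISWI mRNAs were among them. The 35 also held 10 of the CHD and NuRD, 8 of the SWI/SNF and 3 of the INO80 and SWR1 type mRNAs, and 18 of the 21 ATPases. The group medians without it were 2.60 for ISWI, 2.18 for CHD and NuRD, 1.44 for SWI/SNF and 0.75 for INO80 and SWR1 type, and 36 members (61.0%) passed the threshold of the study against 15.7% of all tested genes. CHD4 then had 2.19 (limma, adjusted p = 0.00474), SMARCA4 had 2.00 (limma, adjusted p = 0.00466) and CHD6 had 2.64 (limma, adjusted p = 0.000525). The part of the mitochondrial share in this difference between libraries was not tested. A count model on the recovered reads of all 6 libraries (DESeq2) called 27 members higher (45.8%) against 7.73% of all tested genes, and edgeR called 9 against 2.57%.

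**Figure D3:**
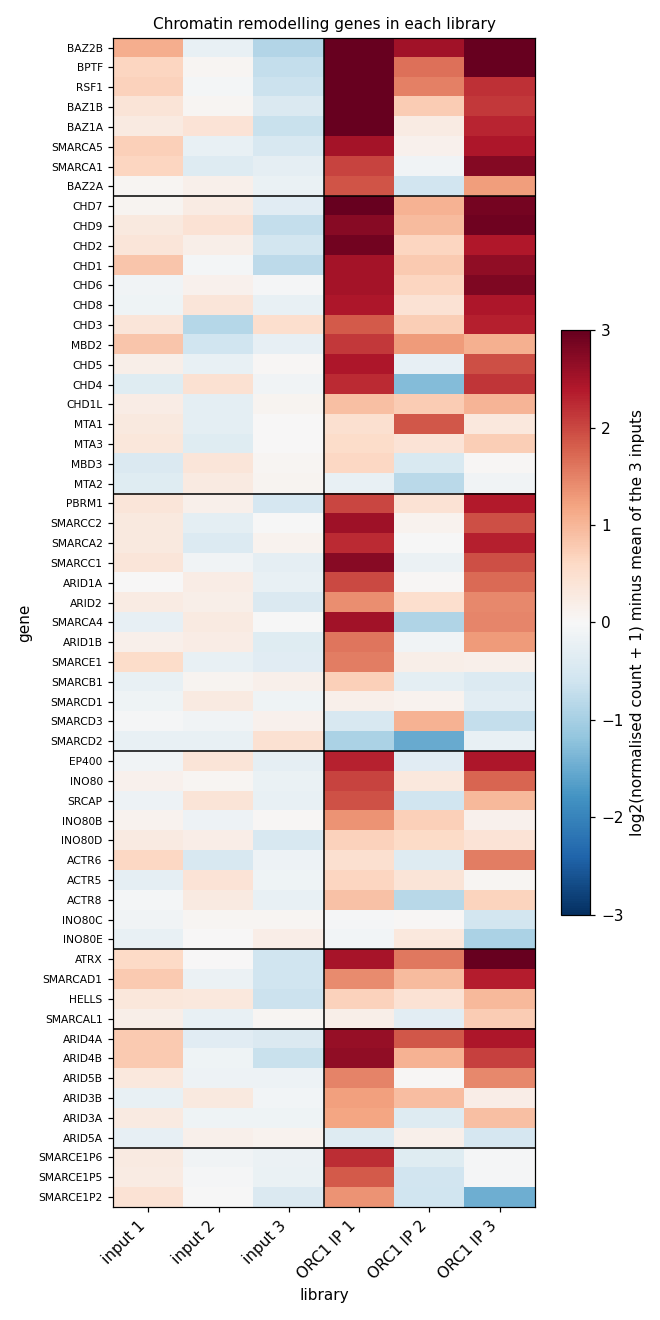
Log2 of the normalised count of each member relative to the mean of the 3 inputs, in each of the 6 libraries, with members arranged by complex and the colour scale ending at 3 in both directions. ORC1 IPs 1 and 3 are red for most members (medians 1.89 and 1.44), while ORC1 IP 2 is pale (median 0.24).

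Remodelling mRNAs are long, and their values rose with length. The longest annotated transcript had a median of 5948 bases in the tested members and 3283 in all tested genes. Across members, Spearman's rho between log2 fold change and this length was 0.65, against 0.34 across all tested genes. Within replicates it was 0.62, 0.16 and 0.66 across members for ORC1 IP over input 1, 2 and 3. Among members the relation was thus weak in the pair that holds ORC1 IP 2. Across all tested genes rho was 0.16, 0.15 and 0.44 in the same order, so there it was as weak in replicate 1. Without ORC1 IP 2 rho was 0.67 across members and 0.36 across all tested genes. Genes are not independent replicates, and members of a family share sequence, length and library.

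Within length classes the members still had higher medians than the table. Under 3 kb the median log2 fold change was 0.48 over 8 members and -0.25 over 7304 tested genes. From 3 to 6 kb it was 0.56 over 22 members and 0.08 over 5873 genes, and from 6 to 9 kb 1.52 over 17 members and 0.40 over 1994 genes. At 9 kb or more it was 1.97 over 12 members and 0.61 over 891 genes. Without ORC1 IP 2 the members' medians in these classes were 0.57, 0.74, 2.19 and 2.63, against -0.31, 0.12, 0.53 and 0.86 for all tested genes. In this longest class 5 members passed the test (41.7%), while 8.31% of all tested genes in the class were called higher. From 6 to 9 kb 2 members passed (11.8%), against 4.61% of all tested genes in the class. From 3 to 6 kb 1 member passed, ARID4A (4.55%, against 2.40%), and under 3 kb 0 did, against 0.794%. Base composition moved with these values: GC content of the transcripts had a median of 38.9% in the 8 called members, 48.0% in all 59 and 48.1% in all tested genes. With a correction for GC content and length in each library, 2 members, BAZ2B and ARID4A, were called (3.39%), against 0.816% of all tested genes, and the median of the members was 0.93. The threshold count thus fell under that correction, while the median over all members was near its uncorrected value of 1.03. Group medians went from 1.94 to 1.51 for ISWI, 1.49 to 1.25 for CHD and NuRD and 1.03 to 0.52 for SWI/SNF. For INO80 and SWR1 type the change was from 0.55 to 0.46, and for the other SNF2 ATPases from 1.14 to 0.75. The ARID proteins outside SWI/SNF went from 0.89 to 0.70, and the pseudogenes rose from 0.41 to 0.64.

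**Figure D4:**
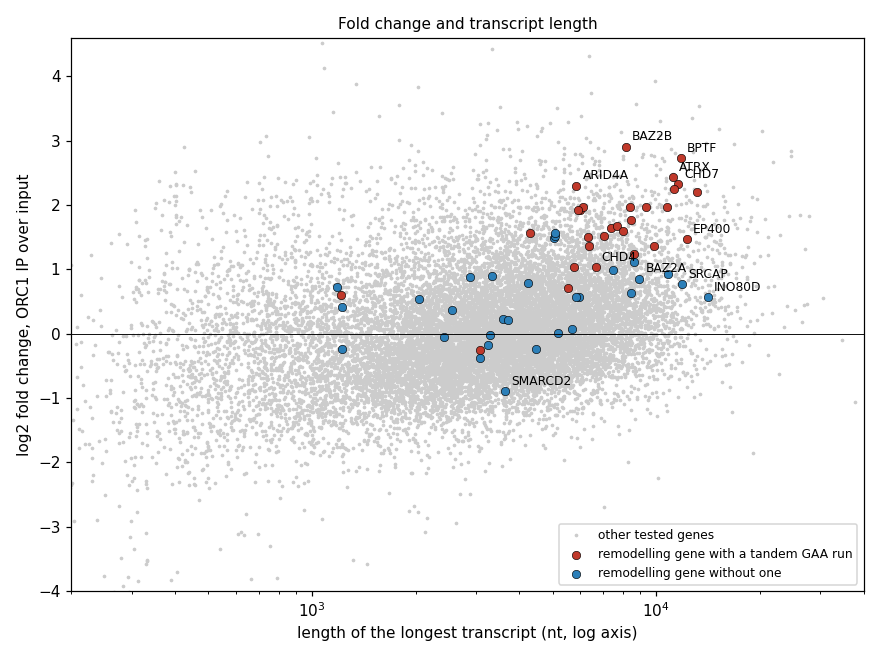
Log2 fold change of ORC1 IP over input against the length of the longest annotated transcript (log axis) for all tested genes (grey) and the members (coloured by whether the canonical transcript holds a tandem GAA run). Among members of 6 kb or more, those with a run have a median of 1.84 and those without 0.86, and a few grey points lie outside the axes.

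Members whose transcript holds a tandem GAA run, as in the windows shown above, had higher values. The median log2 fold change was 1.68 over the 29 with a run and 0.56 over the 30 without, against 0.61 and -0.06 in all tested genes with and without one. All 8 called members carried a run (27.6% of the members with one), and 0 of those without a run were called. Of all tested genes, 6.32% with a run and 1.67% without one were called higher. Of the members past the threshold of the study, 22 carried a run (75.9% of those with one) and 4 did not (13.3%), against 27.4% and 8.37% of all tested genes with and without a run. Length moves with the presence of a run, so members of 6 kb or more were also taken alone: the 22 with a run had a median of 1.84 with 7 called, and the 7 without had 0.86 with 0 called. For all tested genes of that length the medians were 0.89 over 719 with a run, of which 10.6% were called, and 0.35 over 2166 without, of which 4.16% were called.

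The long members without a run had positive values of up to 1.11, for ARID2 (8598 bases), the 1 of them past the threshold of the study. INO80D, whose longest transcript is 14128 bases and so the longest of all members, had 0.56, SRCAP (11905 bases) had 0.76 and ARID1B (10813 bases) had 0.93. A run did not by itself go with a pass: ARID1A and CHD4, which hold runs of 5 copies, had 1.24 and 1.03 with limma adjusted p of 0.222 and 0.603. Without ORC1 IP 2 the medians with and without a run were 2.39 and 0.73, with 26 of 29 and 9 of 30 members called, against 34.4% and 8.58% of all tested genes with and without one. After the correction for GC content and length they were 1.36 and 0.44. This split was also made after the values were seen and has no test, and the part of length or base composition in it was not tested beyond these values.

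Closely related members were also compared within each library, as the log2 ratio of their normalised counts, which does not depend on the size factor. Of 15 paralogue or counterpart pairs, 3 had ratios that did not overlap between the groups. The share of such pairs over the whole table was not taken, so this count has no background beside it. With 3 libraries against 3, the two-sided exact permutation test cannot go below p = 0.1, so no pair could pass 0.05. The log2 ratio of BAZ2A to BAZ2B was 3.02, 4.43 and 4.75 in the inputs and 2.86, 0.97 and 2.21 in the ORC1 IPs, a difference of -2.05 ± 0.77 (SE; exact permutation p = 0.1, adjusted over the pairs 0.5). BAZ2A thus exceeded BAZ2B in every library, and by less in the ORC1 IPs. CHD8 to CHD7 went from 1.55, 1.86 and 1.88 to 1.17, 1.14 and 1.30, a difference of -0.56 ± 0.12 (SE; exact permutation p = 0.1, adjusted 0.5). The ratio of EP400 to SRCAP went from -0.86, -0.91 and -0.95 to -0.52, -0.65 and 0.56, a difference of 0.70 ± 0.38 (SE; exact permutation p = 0.1, adjusted 0.5). Without ORC1 IP 2 these 3 differences were -1.53, -0.53 and 0.93. For the SWI/SNF scaffolds SMARCC1 and SMARCC2 the difference was -0.03 (exact permutation p = 0.8), and for CHD1 and CHD2 it was -0.00 (exact permutation p = 1).

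**Figure D5:**
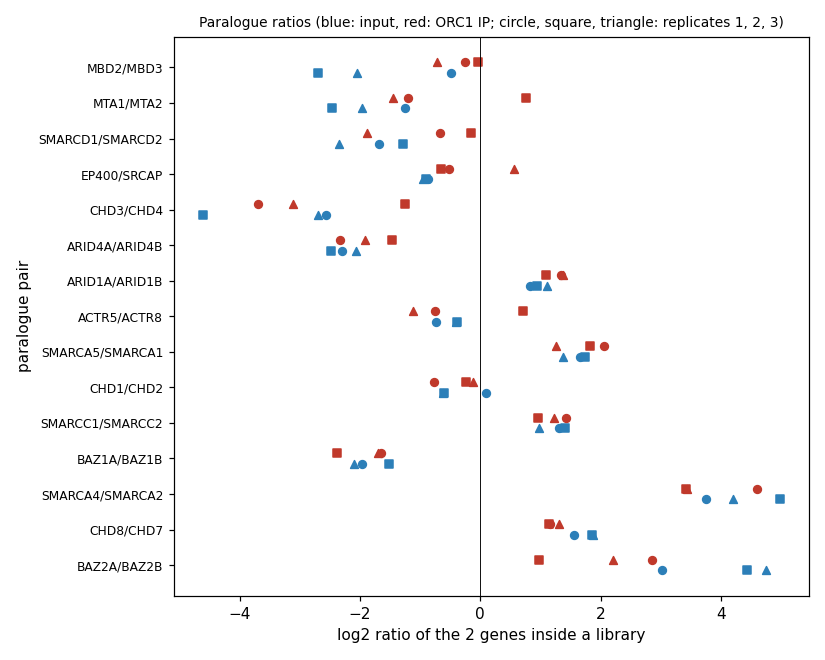
Log2 ratio of normalised counts within each library for the 15 pairs of related members, with inputs and ORC1 IPs in separate colours. The ratios of BAZ2A to BAZ2B, CHD8 to CHD7 and EP400 to SRCAP do not overlap between the groups, and those of the other 12 pairs do.

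Subunits of the same complexes whose symbols the rule does not hold gave lower values. The test covered 47 of the 48 such genes listed, with a median log2 fold change of 0.35 and 32 positive values. Their longest transcripts were shorter than those of the members (median 4031 against 5948 bases), and fewer held a tandem GAA run (19.15% against 49.15%). The part of these features in the lower values was not tested. BRD7, the bromodomain subunit of PBAF, rose by 1.90 on the log2 scale, from 810, 348 and 364 normalised counts to 2500, 1518 and 1418 (limma, adjusted p = 0.0308). BRD8, a bromodomain subunit of the TIP60 complex, rose by 1.74 (limma, adjusted p = 0.0292), and 0 fell. The 2 called are 4.26% of these subunits, against 2.28% of all tested genes. The threshold of the study was passed by 6 (12.8%) in the higher direction, near the 10.9% of all tested genes, and by 1, ZNHIT1 of the SRCAP complex (-1.21), in the lower (2.13% against 7.25%). Among paralogous subunits of these complexes, HDAC1 and HDAC2 had 0.04 and 1.07, RUVBL1 and RUVBL2 0.03 and -0.47, and RBBP4 and RBBP7 -0.11 and -0.06.

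Levels per length did not follow the same order as the fold changes. Per kilobase of summed exons, CHD4 was the most abundant member in the inputs with a mean of 1410 normalised counts per kb, followed by MTA2 with 1201, SMARCD2 with 1175, SMARCC1 with 786 and BAZ1B with 752. The lowest tested protein-coding members were SMARCA2 with 11.7, BAZ2B with 17.2, ARID3B with 18.7 and ARID4A with 20.6. In the ORC1 IPs the mean level was 4372 for CHD4, 3460 for BAZ1B, 928 for MTA2 and 660 for SMARCD2, and 112 for BAZ2B, 96.6 for ARID4A and 41.4 for SMARCA2. BAZ2B and ARID4A, both called, ranked 2 and 4 from the lowest of the 59 tested members in the inputs and 15 and 14 in the ORC1 IPs.

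Reads in exons shared with another gene could not be assigned with certainty, since the use of strand in the counting is not stated. In GENCODE v44, which is not the annotation the reads were counted on, 8 members shared at least 10% of their exon bases with another gene of the table. Of the called members, ARID4B shared 12.9% with RBM34 on the same strand. BAZ2B shared 1.92% with its antisense gene BAZ2B-AS1 and 2.50% with another gene on the opposite strand, RSF1 shared 2.07% with a gene on the same strand, and no overlap was listed for ATRX and ARID4A. CHD1L shared 63.2% with a listed gene on the same strand. Genes that the table does not list shared 76.0% of INO80B, 73.1% of SRCAP and 46.9% of CHD4, on the same strand.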

How the data were processed

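Native ORC1 RIP-seq was measured in 3 input and 3 ORC1 IP libraries. The methods of the study and the labels name Trimmomatic for trimming, STAR for alignment to hg19, featureCounts for reads per Ensembl gene, and DESeq2. The sources used here do not state whether counting used strand or how reads matching several genes were treated. The authors deposited a signal for each library, namely gene counts over a size factor. All values (100%) were whole multiples of 1 read within a tolerance of 0.001, and whole reads could be recovered. A count test on these reads (edgeR 4.0.16) called 425 genes higher and 225 lower. The 6 other value columns of the table hold the authors' own deposited comparison (mean, log2 fold change, standard error, Wald score, p-value and adjusted p-value) and were not used.

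ORC1 IP was compared with input by limma 3.58.1 (R 4.3.3; intensity trend, no block) on log2(normalised count + 1) for genes whose normalised counts averaged at least 10, with Benjamini-Hochberg adjustment over all genes tested. Fold changes are on this scale, which understates changes of low genes. Errors of fold changes are SE and errors of levels are SD. The fit was tested on simulated data. The source of transcript length, GC content, exon overlaps and sequences was the GENCODE v44 annotation of GRCh38, joined on Ensembl gene IDs. These coordinates are not those of the reads.

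Members, complex groups, accessory subunits and alternatives were chosen with earlier results of these data known. Genes named with values were the called members, the catalytic ATPases, and the highest and lowest member of each group. Apart from partners in a pair, MBD2, MBD3, SMARCB1, SMARCD1, SMARCD3, SMARCE1 and the other BAZ genes were named after their values were seen. The same holds for the long members without a GAA run.

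The labels give the input and ORC1 IP of a number to the same RIP replicate, so the numbers pair the samples. Deviations from the group means correlated at -0.32, -0.24 and 0.22 for same-numbered libraries 1, 2 and 3, and the highest correlation was 0.50, between input 2 and ORC1 IP 1. The library titles share a code within each same-numbered pair. These correlations did not show the pairing, but they also hold differences between single libraries and so cannot decide it. The pairing bears on the block and on values within replicates. Alternatives were other pseudocounts (0.5 and 5), filters and scalings, limma without trend, edgeR, DESeq2 1.42.0, the replicate block, a correction for GC content and length, and leaving out each library.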

Additional observations from a re-analysis of the deposited data

How the results depend on the processing

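The 8 members called higher became 3 in limma without trend, 27 in DESeq2 and 2 with the correction for GC content and length, and ranged from 0 to 35 when 1 library was left out: 0 without input 3 and without ORC1 IP 3, 1 without input 2, 3 without ORC1 IP 1, 7 without input 1 and 35 without ORC1 IP 2. Of all tested genes 0.0363%, 0.145%, 0.291%, 1.19%, 2.44% and 11.9% were called higher in these fits, in the same order, and 0.866% in limma without trend. The cause was not tested. BAZ2B was called under 17 of the 19 alternatives, ARID4A under 15, ATRX under 14, BPTF and RSF1 under 13, CHD7 under 12, CHD9 under 11 and ARID4B under 10. The 26 members past the threshold of the study became 34 in DESeq2 and 32 in edgeR. They ranged from 16 to 36 with 1 library left out, lowest without input 3 and highest without ORC1 IP 2. The 36 are 61.0% of the members, against 15.7% of all tested genes in that fit. Under the other alternatives the share of all tested genes past this threshold was not taken. In the lower direction that threshold was passed by 1 member with total count scaling and by 0 to 1 with 1 library left out. The median of the members stayed between 0.82 (total count scaling, which moved the median of all tested genes from 0.01 to -0.19) and 1.57 (without ORC1 IP 2). Group medians moved by over 1.5 times for SWI/SNF (0.52 with the GC and length correction, 0.59 without ORC1 IP 1), INO80 and SWR1 type (0.34 with total count scaling, 0.32 without ORC1 IP 1), the other SNF2 ATPases (0.75 with that correction), members without a GAA run (0.35 with total count scaling, 0.24 without ORC1 IP 1) and the pseudogenes (-0.30 without ORC1 IP 1 to 0.90 without ORC1 IP 2).

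With the replicate block, which follows the pairing of the labels, 9 members (15.25%) were called higher in limma and 6 (10.17%) in edgeR. Of all tested genes 2.62% and 2.45% were called higher in these fits. CHD6 passed in the first of these (limma, adjusted p = 0.0452), while BPTF and CHD9 did not pass in the edgeR fit with the block (adjusted p = 0.0858 and 0.0680), and CHD6, called in edgeR (adjusted p = 0.0385), did not pass with the block (0.0693). The limma block changed no other call among the members named. Accessory subunits called higher, 2 of them, became 0 with total count scaling and in limma without trend, 4 in DESeq2, 1 in edgeR with the replicate block and 1 with the GC and length correction. Of all tested genes 0.527%, 0.866%, 7.73%, 2.45% and 0.816% were called higher in these fits, in the same order. With 1 library left out, 0 to 9 accessory subunits were called higher. The 9, without ORC1 IP 2, are 19.15% of them, against 11.9% of all tested genes. In the lower direction 1 accessory subunit was called in DESeq2 and 0 to 1 with 1 library left out. The median of the accessory subunits, 0.35 in the main fit, was 0.14 with total count scaling and 0.22 without ORC1 IP 1.

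Changes of sign fell on values that did not pass a test. SMARCAL1 was -0.0072 with total count scaling and SMARCE1P2 was 0.19 in edgeR and 0.20 in DESeq2. With 1 library left out, log2 fold changes ran from -0.51 to 0.12 for INO80E, -0.0718 to 0.47 for SMARCAL1, -1.03 to 0.37 for SMARCE1P2 and -0.20 to 1.09 for SMARCE1P6. Differences in log2 ratio ran from -0.42 to 0.49 for ACTR5 to ACTR8, -0.18 to 0.19 for BAZ1A to BAZ1B, -0.13 to 0.23 for CHD1 to CHD2, -0.11 to 1.11 for CHD3 to CHD4, -0.0493 to 0.345 for SMARCA5 to SMARCA1 and -0.15 to 0.10 for SMARCC1 to SMARCC2.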
